A study of Homo sapiens with 12 samples.

Results

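The genes described here are 35 listed members of the protein folding machinery of the endoplasmic reticulum (ER), of the unfolded protein response and of ER-associated degradation. They were listed by name for what their products do, with earlier results of these data known. They were matched by Ensembl ID among the 40490 gene IDs measured, and 34 of them were among the 16468 genes with enough signal to be tested. The exception was DERL3, listed at 0, 0.106 and 0 in mimic, 0.648, 0.886 and 0.612 in inhibitor, 1.06, 0.0908 and 0 in inhibitor control, and 0 in all 3 mimic control libraries. RNA was sequenced from SW1353, an established human chondrosarcoma line, transfected with a lipid reagent and harvested 48 hours later. The 4 groups received a miR-455-3p mimic (a synthetic copy of the microRNA), a miR-455-3p inhibitor (an oligonucleotide that binds the mature microRNA), an inhibitor control or a mimic control, each at 50 nM and each with 3 libraries. All libraries came from 1 cell line, and the mature microRNA was not measured.

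Proteins that enter the secretory pathway are folded in the ER by chaperones of the HSP70 and HSP90 families, by oxidoreductases that form disulphide bonds, and by lectins that hold newly glycosylated chains until they are folded. Chains that fail to fold are passed back to the cytosol and degraded. When unfolded chains build up, the sensors ATF6 and ERN1 (IRE1) and the transcription factor XBP1 raise the genes of this machinery, many of them through ER stress elements in their promoters, and cells that secrete collagen and proteoglycan, such as chondrocytes, lean heavily on it.

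Total normalised signal lay between 10974101 and 12016813 per library, and mitochondrially encoded transcripts took between 6.09% and 9.93% of it. Mimic replicate 3 stood apart from its group. Its score on the first principal component was 20.9, against -59.7 and -41.5 for mimic replicates 1 and 2, and it lay next to the inhibitor control libraries. Calls of members that use the mimic group are therefore given with and without it. Genes outside the list are described only with it. Of the chondrocyte markers, SOX9 had a signal of 994 to 1415 over the 12 libraries, ACAN 5.75 to 28.4, and COL2A1 was listed at 0 in all 12. The summed signal of 9 epithelial, blood cell and endothelial markers was 33.2 to 42.2 in mimic, 38.6 to 81.5 in inhibitor, 21.8 to 34.2 in inhibitor control and 21.1 to 81.9 in mimic control libraries.

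The mimic copies the RNA below, whose seed (bases 2 to 8, in capitals) pairs with TGGACTG in a 3′ UTR. It is encoded at chr9:114209487-114209507 (plus strand, GRCh38.p14, sequence from RefSeq).
hsa-miR-455-3p: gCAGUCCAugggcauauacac
The longest 3′ UTR of each gene in GENCODE 29 was searched for that 7-base match. It was present in 4 of 34 tested members (11.8%) and in 1852 of 13940 tested genes with a 3′ UTR (13.3%). The 4 sites are shown with 8 bases on each side, with the match in capitals, because they are the members that carry a site.
CALR: tccagggcTGGACTGaggcctga
HERPUD1: gacaggaaTGGACTGgatcacct
EDEM1: ttagatcaTGGACTGtgcacgtg
OS9: actcttccTGGACTGgcttgcct
The matches lie at chr19:12943933-12943939 (CALR), chr16:56943330-56943336 (HERPUD1), chr3:5218932-5218938 (EDEM1) and chr12:57720953-57720959 (OS9), all on the plus strand of GRCh38. The CALR match starts at base 20 of a 576-base 3′ UTR and is followed by an A. A match of letters is a description and not a functional site. In mimic over mimic control the log2 differences of the 4 genes were 0.07 (CALR), 0.17 (HERPUD1), -0.19 (EDEM1) and 0.10 (OS9), and none passed the test.

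The promoters were searched for the ER stress element ERSE, spelled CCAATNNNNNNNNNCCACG, for ERSE-II, spelled ATTGGNCCACG, and for the unfolded protein response element core TGACGTGG, on both strands of the 250 bases before to 50 bases after each RefSeq gene start (GRCh38.p14). Of the 35 members, 32 had a promoter in the table. ERSE was present in 7 of 32 members (21.9%) and in 25 of 27305 genes (0.0916%). ERSE-II was present in 3 members (9.38%) and in 19 genes (0.0696%). The core TGACGTGG was present in HYOU1 and VCP (6.25% of members) and in 253 genes (0.927%), and in HYOU1 it overlapped 1 of the 2 ERSE-II matches. The list was made up of genes of this response, so this excess is a property of the list and not of the libraries. The elements of the members that changed below are shown with the fixed letters in capitals.
HSPA5, ERSE: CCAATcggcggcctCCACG
HSP90B1, ERSE: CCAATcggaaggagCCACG
CALR, ERSE: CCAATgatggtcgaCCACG
CANX, ERSE: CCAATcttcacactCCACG
PDIA6, ERSE: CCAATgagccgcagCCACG
XBP1, ERSE: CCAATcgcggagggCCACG
HYOU1, ERSE-II: ATTGGaCCACG
SDF2L1, ERSE-II: ATTGGtCCACG
These lie at chr9:125241391-125241409 (HSPA5), chr12:103930216-103930234 (HSP90B1), chr19:12938384-12938402 (CALR), chr5:179698778-179698796 (CANX), chr2:10812853-10812871 (PDIA6), chr22:28800603-28800621 (XBP1), chr11:119057274-119057284 (HYOU1) and chr22:21642114-21642124 (SDF2L1). The CALR, HYOU1 and SDF2L1 matches run antisense to the gene, and the others run with it. The ERSE of HSPA5 starts 66 bases and that of PDIA6 86 bases before the gene start. HSP90B1 and HYOU1 had a second match each, and the remaining members with an element were CRELD2 (ERSE) and HERPUD1 (ERSE-II).

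Levels per gene spanned a wide range. Per kilobase of the longest coding transcript, the mean signal over the 12 libraries was highest for the prolyl isomerase PPIB (7374), the lectin chaperone CALR (6372), HSPA5 (4843), the translocon subunit SEC61G (3855) and P4HB (3237). It was lowest for the sensor ERN1 (2.19) and for DERL3 (0.0912). SEC61A1, the pore subunit of the translocon, stayed between 7480 and 8114 in signal over all libraries and passed in no comparison. The values that follow are normalised signal, which is not corrected for gene length. Differences are log2 ± SE from a limma fit to all 12 libraries (n = 3 per group), with adjusted p over all 16468 genes and a threshold of 0.05.

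With the mimic, relative to the mimic control, 3 members rose, all of them folding factors. PDIA6, a protein disulphide isomerase, was 2.55 times as high, HYOU1, an HSP70-like chaperone that serves as an exchange factor for HSPA5, 2.45 times, and PPIB, a peptidyl-prolyl isomerase that acts on collagen chains, 1.88 times. No member fell in this limma fit, and 8 members had an unadjusted p under 0.05 in either direction, against 13.2% of all genes. The 3 raised members are 8.82% of the 34 tested, against 0.686% of all genes raised and 0.0729% lowered, and the median log2 difference was 0.11 over the members and 0.01 over all genes. Quantile normalisation gave 92 raised and 26 lowered genes, against 113 raised and 12 lowered in the values as deposited.

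PDIA6 (chromosome 2, 10783391 to 10837977, minus strand) had a signal of 12539, 10388 and 10428 in mimic libraries, 9434, 8402 and 9656 in inhibitor libraries, 9628, 9374 and 9210.2 in inhibitor control libraries, and 4498, 4301 and 4298 in mimic control libraries. HYOU1 (chromosome 11, 119044189 to 119057202, minus strand) had 527, 453 and 454 in mimic, 300.1, 283 and 289.6 in inhibitor, 354, 359 and 348 in inhibitor control, and 201, 179 and 206 in mimic control libraries. PPIB (chromosome 15, 64155812 to 64163205, minus strand) had 9175, 8456 and 10019.9 in mimic, 8956, 8849.8 and 8304 in inhibitor, 9362, 9295 and 8505 in inhibitor control, and 4925, 5171 and 4634 in mimic control libraries. For all 3 genes the mimic control libraries were the low ones, and the other 9 libraries all lay above them. The log2 differences of mimic over mimic control were 1.34 ± 0.083 for PDIA6 (adjusted p = 7.93e-06), 1.29 ± 0.097 for HYOU1 (adjusted p = 3.43e-05) and 0.91 ± 0.078 for PPIB (adjusted p = 8.98e-05). For each gene, permuting the labels of these 6 libraries gave an exact two-sided p = 0.1, the smallest that 3 against 3 allows. The calls held without mimic replicate 3, with log2 differences of 1.39, 1.32 and 0.84. HYOU1 has a second ID with identical values, so its level is uncertain. In bulk RNA, fewer cells that express a gene and less RNA per cell cannot be told apart.

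**Figure D1:**
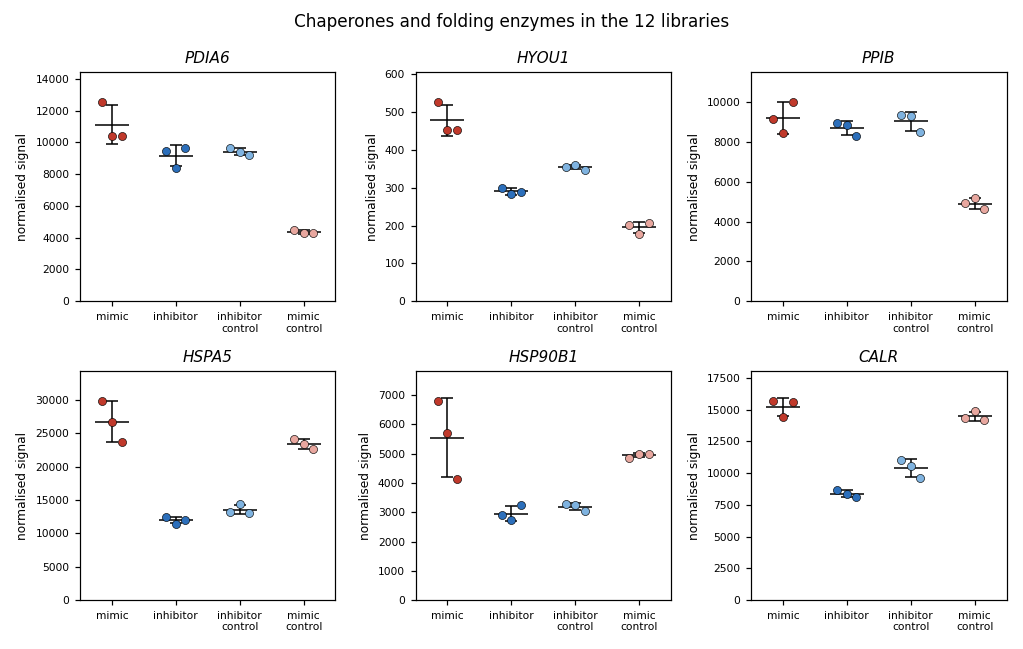
Normalised signal (y axis, from 0) of 6 chaperones and folding enzymes in the mimic, inhibitor, inhibitor control and mimic control groups (x axis). Points are libraries, the bar is the mean and the whiskers are the SD (n = 3). PDIA6, HYOU1 and PPIB are lowest in the 3 mimic control libraries, whereas HSPA5 and CALR are highest in the mimic and mimic control libraries.

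HSPA5 (BiP), the central ER HSP70, followed another order. It had 29826, 26727 and 23725 in mimic, 12492, 11467 and 12061 in inhibitor, 13261, 14359.7 and 13104 in inhibitor control, and 24082, 23344 and 22681 in mimic control libraries. Every library of the mimic and mimic control groups lay above every inhibitor and inhibitor control library, and mimic replicate 3 lay within the range of the mimic control. The difference of mimic over mimic control was 0.19 ± 0.083 (adjusted p = 0.354). Without mimic replicate 3 it was 0.27 ± 0.069 (adjusted p = 0.0439), and 7 members rose, the added ones being HSPA5, HSP90B1 (log2 0.33, adjusted p = 0.0477), DNAJC3 (log2 0.41, adjusted p = 0.0116) and P4HB (log2 0.57, adjusted p = 0.00748). Calls rose over all 16468 genes too in that fit, to 466 raised and 331 lowered, against 113 and 12 with all libraries. P4HB, the disulphide isomerase that is also a subunit of collagen prolyl hydroxylase, had 14893, 11713 and 6560.4 in mimic libraries, against 8242, 8863 and 9695 in mimic control libraries, so 2 mimic libraries lay above the mimic control range and replicate 3 below it. DNAJC3, a co-chaperone of HSPA5, had 2027, 1823 and 1446 in mimic and 1392, 1553 and 1409.6 in mimic control libraries, with replicate 3 again the lowest of its group.

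With the inhibitor, relative to the inhibitor control, 3 members fell and none rose by limma, with 8 at an unadjusted p under 0.05 in either direction, against 14.5% of all genes. Those that fell were SEL1L, the adaptor of the HRD1 ubiquitin ligase complex that carries out much of ER-associated degradation, and CANX and CALR, the calnexin and calreticulin lectins that hold glycoproteins while they fold. The share lowered was 8.82% of members, against 0.783% of all genes lowered and 0.765% raised. The median log2 difference was -0.08 over members and 0.03 over all genes.

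SEL1L (chromosome 14, 81471549 to 81533861, minus strand) had 211, 266 and 198 in inhibitor libraries and 348, 316 and 352 in inhibitor control libraries. CANX (chromosome 5, 179678628 to 179730925, plus strand) had 236, 318 and 263 in inhibitor and 403, 419 and 382 in inhibitor control libraries. CALR (chromosome 19, 12938578 to 12944489, plus strand) had 8658, 8368 and 8125 in inhibitor and 11035, 10577 and 9625 in inhibitor control libraries. For none of the 3 did the groups overlap, although inhibitor replicate 2 was the nearest to the controls for SEL1L and CANX. The 3 were picked by the test on these same libraries, so their separation adds no support. The share of all genes without overlap was not counted. The log2 differences were -0.60 ± 0.11 for SEL1L (adjusted p = 0.0214), -0.57 ± 0.11 for CANX (adjusted p = 0.0280) and -0.31 ± 0.069 for CALR (adjusted p = 0.0460). UGGT1, the glucosyltransferase that returns unfolded glycoproteins to these lectins, had 169, 203 and 163 in inhibitor and 250.1, 221 and 216 in inhibitor control libraries, a difference of -0.36 ± 0.11 that did not pass (adjusted p = 0.158).

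These calls rested on few libraries. CALR passed only in the fits without mimic replicate 1, mimic replicate 3 or inhibitor control replicate 3, and in the other 9 fits that left out 1 library the adjusted p was 0.0508 to 0.199. CANX was lost without any 1 of the inhibitor control libraries or without inhibitor replicate 1 or 3 (adjusted p = 0.0669 to 0.133), and SEL1L without inhibitor control replicate 1 or 3 or inhibitor replicate 1 or 3 (adjusted p = 0.0821 to 0.111). CALR did not pass without the filter on low values either (adjusted p = 0.0936). Without mimic replicate 3, which enters this comparison only through the shared estimate of spread, EDEM3 also fell (log2 -0.39, adjusted p = 0.0318). Over all genes that fit called 332 raised and 321 lowered, against 126 and 129 with all libraries.

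The pair of negative controls differed from each other in more members than either agent did from its own control. In inhibitor control over mimic control 5 members were raised (14.7% of those tested, against 4.74% of all genes) and 7 were lowered (20.6%, against 5.38%). PDIA6, PPIB, HYOU1, SDF2L1 and SEC61B were higher, and HSPA5, HSP90B1, CANX, CALR, UGGT1, EDEM1 and MANF were lower. The 3 members grouped here as the lectin cycle, CANX, CALR and UGGT1, were all among the lower ones. The labels separate these groups by the kind of control oligonucleotide, and other differences between them were not tested.

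Among members, PDIA6 had the largest rise at 1.11 ± 0.083 (adjusted p = 3.14e-05), followed by PPIB at 0.88 ± 0.078 (adjusted p = 0.000108) and HYOU1 at 0.86 ± 0.097 (adjusted p = 0.000621). Their values stand above, and the mimic control libraries enter this comparison and that of the mimic alike. SDF2L1, a cofactor of HSPA5 in the lumen, had 332, 335 and 288 in inhibitor control libraries, against 226, 149 and 192 in mimic control libraries (log2 0.77 ± 0.20, adjusted p = 0.0344). Its mimic libraries (277, 203 and 386) spanned both groups, and its inhibitor libraries had 336, 303 and 317. SEC61B, the beta subunit of the translocon, had 1323, 1179 and 1210.3 in inhibitor control and 917, 961 and 850.3 in mimic control libraries (log2 0.44 ± 0.0998, adjusted p = 0.0202). Its mimic libraries had 1140.3, 945 and 1242 and its inhibitor libraries 1233, 1208 and 1264.

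Among the lowered members, HSPA5 differed by -0.78 ± 0.083 (adjusted p = 0.000445) and CALR by -0.48 ± 0.069 (adjusted p = 0.00324), with mimic control values of 14361, 14878 and 14212 for CALR. HSP90B1 (GRP94), the ER HSP90, had 2899, 2719 and 3233 in inhibitor, 3275, 3237 and 3052 in inhibitor control and 4861, 4997 and 4974 in mimic control libraries (log2 -0.63 ± 0.14, adjusted p = 0.0186). CANX had 543, 580.0 and 498 in mimic and 557, 626 and 593 in mimic control libraries, all above the inhibitor control range (log2 -0.56 ± 0.11 between the controls, adjusted p = 0.0142). UGGT1 had 268, 263 and 283 in mimic and 301, 342 and 302 in mimic control libraries, all above the inhibitor control range (log2 -0.46 ± 0.11 between the controls, adjusted p = 0.0283). EDEM1, a mannosidase-like lectin that directs glycoproteins to degradation, had 271, 255 and 288 in inhibitor control and 374, 338 and 381 in mimic control libraries (log2 -0.42 ± 0.10, adjusted p = 0.0275). MANF, a secreted ER stress protein that binds HSPA5, had 727, 602 and 802 in inhibitor, 772, 809 and 728 in inhibitor control and 1015, 1005 and 996 in mimic control libraries (log2 -0.39 ± 0.11, adjusted p = 0.0460).

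In the fits that left out 1 library, PDIA6, PPIB, HYOU1, HSPA5 and CALR kept their calls in all 12. HSP90B1 (adjusted p = 0.0518 to 0.0699) and UGGT1 (0.0632 to 0.0947) were lost without any 1 of the 6 control libraries, MANF without any of these or inhibitor replicate 1 (0.0641 to 0.124), and SDF2L1 without any inhibitor control library or mimic control replicate 2 or 3 (0.0575 to 0.112). CANX was lost without mimic control replicate 2 or 3 or inhibitor control replicate 1 (0.0514 to 0.0594), and EDEM1 (0.0817 to 0.106) and SEC61B (0.0541 to 0.0884) without mimic control replicate 1 or 3 or inhibitor control replicate 1 or 2. Without the filter on low values SDF2L1 (adjusted p = 0.0763) and MANF (adjusted p = 0.0793) did not pass. Without mimic replicate 3, which again acts through the shared spread, 5 members were raised and 12 lowered, the added ones being DNAJB9, P4HB, EDEM3, XBP1 and ATF6 (log2 -0.38 to -0.19, adjusted p = 0.00697 to 0.0415). In a fit to the 6 control libraries alone these 5 and SEC61G (log2 -0.32) were also lower, with adjusted p of 0.00296 to 0.0473. Both fits called more of all 16468 genes than the main fit, which had 781 raised and 886 lowered. The counts were 1810 raised and 1941 lowered without mimic replicate 3, and 1886 and 2027 with the control libraries alone.

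**Figure D2:**
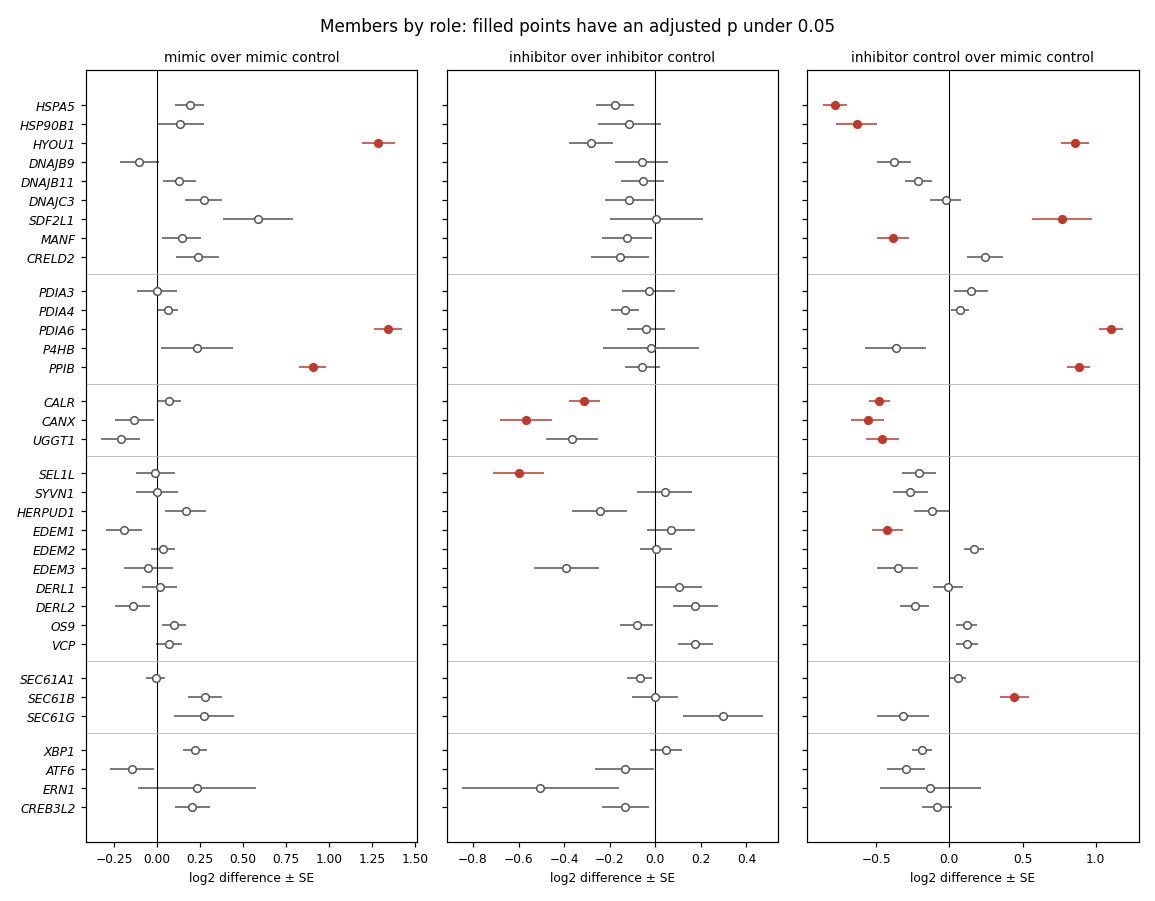
Log2 difference ± SE (x axis) of the 34 tested members (y axis, in groups by role: luminal chaperones, isomerases, lectin cycle, degradation, translocon, sensors and transcription factors) in 3 comparisons. Filled points have an adjusted p under 0.05. The filled points number 3 raised for mimic over mimic control, 3 lowered for inhibitor over inhibitor control, and 5 raised and 7 lowered for inhibitor control over mimic control.

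The mimic effect and the inhibitor effect, each over its own control, differed for 3 members, and all 3 differences were positive. The differences were 1.57 ± 0.14 for HYOU1 (adjusted p = 0.000155), 1.38 ± 0.12 for PDIA6 (adjusted p = 0.000155) and 0.96 ± 0.11 for PPIB (adjusted p = 0.00151), and the 3 genes are 8.82% of members, against 0.625% of all genes with a positive and 0.225% with a negative difference. The inhibitor effects that enter these differences were -0.28 ± 0.097 for HYOU1, -0.04 ± 0.083 for PDIA6 and -0.06 ± 0.078 for PPIB, and none of them passed (adjusted p = 0.194, 0.875 and 0.800). In the mimic arm, the mimic control libraries were the low ones for all 3. SEL1L (0.59 ± 0.16, adjusted p = 0.126), CANX (0.43 ± 0.16, adjusted p = 0.268) and CALR (0.38 ± 0.098, adjusted p = 0.104) did not pass, so in this fit their fall with the inhibitor was not shown to differ from the mimic effect. With array weights, which give less weight to variable libraries, all 3 passed (SEL1L 0.58, adjusted p = 0.0326, CANX 0.57 and CALR 0.33, adjusted p = 0.0399 each), and SEL1L passed also without inhibitor replicate 2 (0.72, adjusted p = 0.0425). Array weights raised the calls in general, to 746 of all genes from 140 and to 8 members from 3. The median over members was 0.25 and over all genes -0.01. Without mimic replicate 3 the count was 6, with HSPA5 (log2 0.45, adjusted p = 0.0289), DNAJC3 (log2 0.52, adjusted p = 0.0211) and P4HB (log2 0.59, adjusted p = 0.0323) added. Over all genes that fit called 280 positive and 212 negative differences, against 103 and 37 with all libraries.

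The mimic was also set against the inhibitor control, to see which members the choice of control changes. This comparison shares its libraries with those above, so its values are given beside theirs and not as separate support. In it 6 members rose, HSPA5, HSP90B1, CALR, MANF, HYOU1 and XBP1, and none fell by limma, with 18 at an unadjusted p under 0.05 in either direction, against 27.9% of all genes (17.6% of members raised, against 2.97% of all genes raised and 1.38% lowered). The median was 0.26 over members and 0.05 over all genes. The split over all genes was 489 raised and 228 lowered in the values as deposited, 324 and 268 after scaling all libraries by a common median ratio, and 276 and 258 after quantile normalisation.

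HSPA5 was 1.97 times as high with the mimic as with the inhibitor control (log2 0.97 ± 0.083, adjusted p = 0.000705), whereas its difference over the mimic control was 0.19. HSP90B1 had 6793, 5709 and 4127 in mimic libraries, all above the inhibitor control (log2 0.77 ± 0.14, adjusted p = 0.0224). CALR had 15676, 14380.3 and 15609 in mimic libraries (log2 0.55 ± 0.069, adjusted p = 0.00621). MANF had 1223, 977 and 1141 in mimic libraries (log2 0.53 ± 0.11, adjusted p = 0.0330), and HYOU1 differed by 0.43 ± 0.097 (adjusted p = 0.0376). PDIA6 and PPIB differed here by 0.24 ± 0.083 (adjusted p = 0.0981, or 0.28 with adjusted p = 0.0233 without mimic replicate 3) and 0.02 ± 0.078 (adjusted p = 0.871). The corresponding differences over the mimic control were 1.34 for PDIA6, 0.91 for PPIB and 1.29 for HYOU1.

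The calls in this comparison depended on which libraries were fitted. With the 6 libraries alone none of the 6 passed (adjusted p = 0.0930 for HSPA5 to 0.180 for HYOU1). In fits to the other 11 libraries HSPA5 and CALR kept their calls throughout, HYOU1 kept it only without mimic replicate 3 or inhibitor replicate 3 (otherwise 0.0502 to 0.130), and MANF lost it without any inhibitor control library, mimic replicate 1 or 2, mimic control replicate 1 or 2, or inhibitor replicate 1 (0.0505 to 0.118). HSP90B1 lost it without any inhibitor control library or mimic replicate 1 or 2 (0.0549 to 0.0954), and XBP1 without mimic replicate 1 or 2 or inhibitor control replicate 1 or 2 (0.0558 to 0.0954). Without the filter on low values HSP90B1 (0.0541), HYOU1 (0.0541) and MANF (0.0628) did not pass, nor HYOU1 after quantile normalisation (0.0528). Without mimic replicate 3, 16 members rose and 1, PDIA3, fell (log2 -0.27, adjusted p = 0.0496). Over all 16468 genes that fit called 2913 raised and 2216 lowered, against 489 and 228 with all libraries. It leaves out the mimic library nearest the inhibitor control on the first principal component, so its added calls are not separate support. The added rises included P4HB (log2 0.94, adjusted p = 9.81e-05), SEC61G (log2 0.81, adjusted p = 0.00123) and CANX (log2 0.48, adjusted p = 0.00896). CANX, at 0.43 ± 0.11 with all libraries (adjusted p = 0.0530), passed also without inhibitor replicate 2 (adjusted p = 0.0495).

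**Figure D3:**
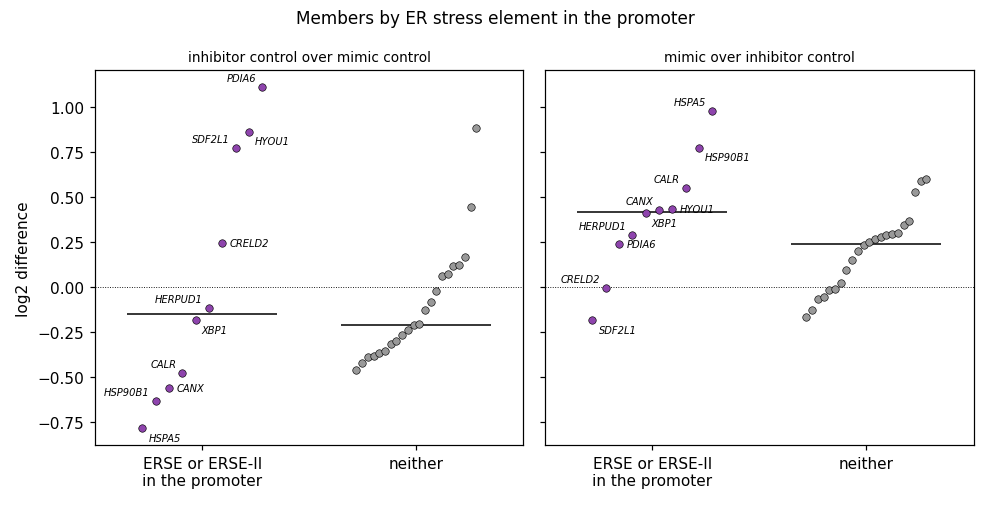
Log2 difference (y axis) of the 10 members with ERSE or ERSE-II in the promoter (named) and the 22 with neither (x axis), for inhibitor control over mimic control and for mimic over inhibitor control. Points are genes and lines are medians. In the first comparison the members with an element lie between -0.78 and 1.11.

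Members with an ER stress element did not move in 1 direction. In inhibitor control over mimic control, 3 of the 10 were raised (PDIA6, HYOU1 and SDF2L1) and 4 lowered (HSPA5, HSP90B1, CANX and CALR), with a median of -0.15, against 2 raised and 3 lowered of the 22 members with neither element and a median of -0.21. Over all genes, 4.74% were raised and 5.38% lowered there. In mimic over inhibitor control, 5 of the 10 rose (median 0.42) and 1 of the 22 (median 0.24), against 2.97% of all genes. With mimic replicate 3 left out, 7 of the 10 rose (median 0.42) and 9 of the 22 (median 0.21), against 2913 of all 16468 genes. With only the 6 libraries compared none was called. HSPA5 and PDIA6 thus carry the ERSE printed above in the same orientation and differed in sign between the controls.

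Of the 11 degradation genes listed, 10 were tested, and beside SEL1L and EDEM1 none passed in any of the 5 comparisons when all 12 libraries were fitted. When mimic replicate 3 was left out, EDEM3 (log2 0.49, adjusted p = 0.00323) and SYVN1 (log2 0.38, adjusted p = 0.0182) rose in mimic over inhibitor control, and EDEM3 fell in inhibitor over inhibitor control (log2 -0.39) and between the controls (log2 -0.35). EDEM3, a mannosidase, had 752, 774 and 513 in mimic, 378, 442 and 423 in inhibitor, 480.4, 574 and 578 in inhibitor control, and 708, 695 and 678 in mimic control libraries, with mimic replicate 3 set below the rest of its group. SEL1L stood at 375, 379 and 411 in mimic and 399, 388 and 387 in mimic control libraries, which overlap (log2 -0.01 ± 0.11). EDEM1 stood at 328, 299.8 and 327 in mimic and 294, 308 and 254 in inhibitor libraries. Its mimic libraries lay below all mimic control libraries, by a difference that did not pass (log2 -0.19 ± 0.10). The share of all genes that separate in this way was not counted. SYVN1 (HRD1), the ubiquitin ligase that SEL1L serves, ranged over 189 to 278, and HERPUD1, a stress-induced part of the same complex, over 539 to 986. DERL1 (841 to 1092) and DERL2 (314 to 427) of the retrotranslocation channel, the lectin OS9 (2061 to 2403), the mannosidase EDEM2 (1247 to 1530) and the extraction ATPase VCP (1521 to 2007) passed in no comparison with all 12 libraries or without mimic replicate 3. SYVN1 shares 398 exon bases on the same strand with the much more abundant FAU, so its level is uncertain.

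**Figure D4:**
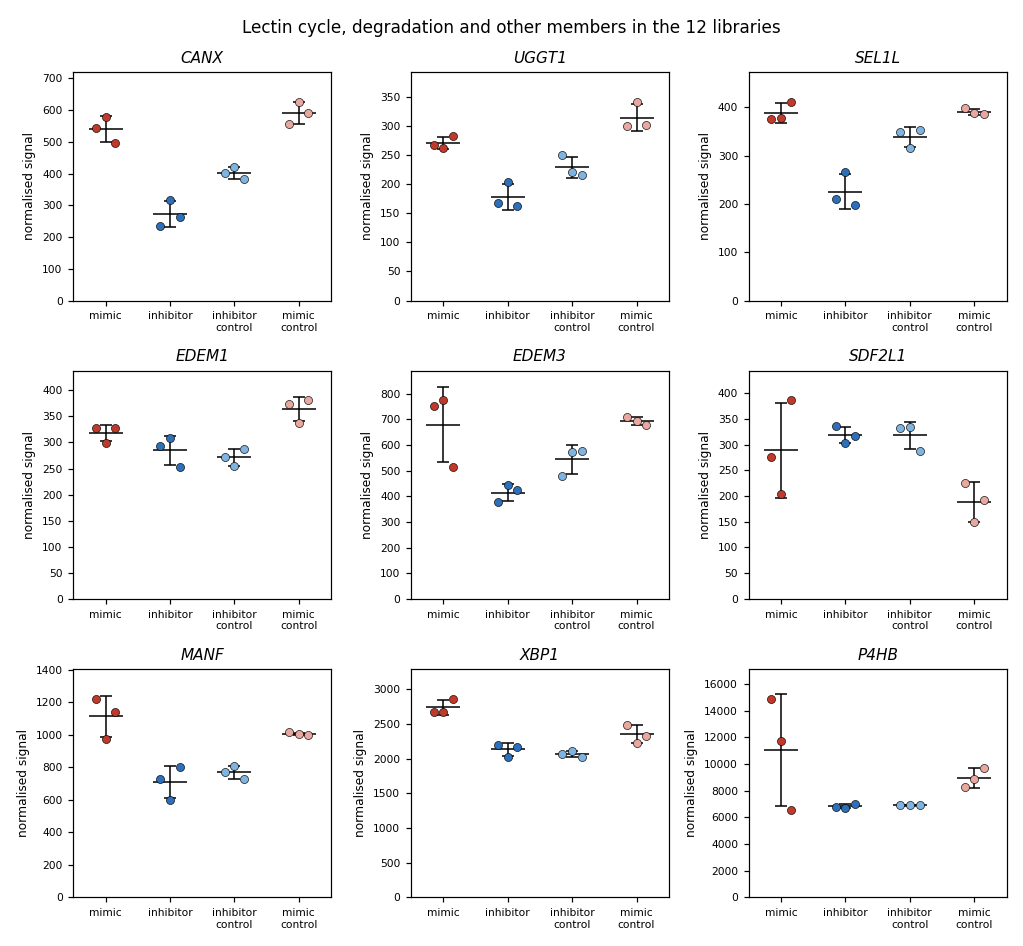
Normalised signal (y axis, from 0) of 9 further members in the mimic, inhibitor, inhibitor control and mimic control groups (x axis). Points are libraries, the bar is the mean and the whiskers are the SD (n = 3). CANX and SEL1L are lowest in the 3 inhibitor libraries, and P4HB has its highest (14893) and its lowest value (6560.4) within the mimic group.

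Of the 4 sensors and transcription factors, XBP1 passed in 1 comparison and the others in none when all 12 libraries were fitted. In the fit that left out mimic replicate 3, ATF6 (log2 0.34, adjusted p = 0.00430) and CREB3L2 (log2 0.35, adjusted p = 0.0221) also rose in mimic over inhibitor control, and ATF6 (log2 -0.30, adjusted p = 0.00697) and XBP1 (log2 -0.19, adjusted p = 0.0415) were lower in inhibitor control than in mimic control libraries. XBP1 had 2674, 2674 and 2864 in mimic, 2202, 2022 and 2172 in inhibitor, 2071, 2104 and 2015 in inhibitor control, and 2491, 2228 and 2330.2 in mimic control libraries. The mimic libraries were the highest, and the differences were 0.22 ± 0.070 over the mimic control (adjusted p = 0.183) and 0.41 ± 0.070 over the inhibitor control (adjusted p = 0.0212). These are gene totals, and the spliced form of XBP1 that makes the active factor was not measured. ATF6 had 1349, 1196 and 854 in mimic, 873, 934 and 932 in inhibitor, 999.7, 1012 and 995 in inhibitor control, and 1200.2, 1282 and 1214 in mimic control libraries, and it passed in none of the 5 comparisons with all 12. Mimic replicate 3 was the lowest of all 12 libraries for this gene. ERN1 had 13.4, 26.2 and 27.5 in mimic, 11.9, 12.9 and 9.77 in inhibitor, 21.1, 17.9 and 11.8 in inhibitor control, and 15.6, 21.6 and 17.5 in mimic control libraries, with SEs of 0.345 to 0.487 on the log2 scale, the widest among the members. Its largest difference, 0.74 for the mimic effect minus the inhibitor effect, was not detectable at this level (adjusted p = 0.590). CREB3L2, a membrane-bound transcription factor of secretory cells, ranged over 171 to 253.

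Among the other folding enzymes, PDIA4 (4829 to 5508) and PDIA3 (3562 to 4854), both disulphide isomerases, did not pass in any comparison with all 12 libraries, and PDIA3 shares sequence with PDIA3P1, listed at 106 to 166. DNAJB11 (1524 to 2274) and DNAJB9 (119 to 177), co-chaperones of HSPA5, and CRELD2 (857 to 1302), a stress-induced luminal protein, did not pass in those fits either. DNAJB11, at 0.34 in mimic over inhibitor control (adjusted p = 0.0566), passed with a filter at 20 (adjusted p = 0.0487), with array weights (adjusted p = 0.0183) and without mimic replicate 3 (adjusted p = 0.0222). DNAJB9 stood at -0.38 ± 0.12 for inhibitor control over mimic control (adjusted p = 0.0537), and passed without mimic replicate 1 (adjusted p = 0.0416), without mimic replicate 3 (adjusted p = 0.0254), with a filter at 20 (adjusted p = 0.0444) and with array weights (adjusted p = 0.0153). SEC61G, the gamma subunit of the translocon, had 4548, 3395 and 2482 in mimic, 2819, 2275 and 3246 in inhibitor, 2192, 2262 and 2267 in inhibitor control, and 2750.1, 2772 and 2857 in mimic control libraries. Its spread was widest within the mimic group, where replicate 3 was the lowest. Exons of PDIA6 overlap ATP6V1C2 and those of PPIB overlap SNX22 on the opposite strand (mean signal 31.5 and 31.0), and the sources used here do not say whether the libraries kept strand.

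Genes of the same pathway outside the list were counted in the same fit. With the mimic, over the mimic control, 1 gene was called in the 6 further lists, against 0.686% of all genes raised. It was TMED2, a cargo receptor of ER to Golgi transport (log2 0.48, adjusted p = 0.0294, 1 of 22 in that list). It averaged 3640 ± 169 in mimic and 2607 ± 107 in mimic control libraries (SD, n = 3 each). With the inhibitor, 2 of 24 other degradation genes fell, against 0.783% of all genes lowered, and no other of these lists held a call. The 2 were ERLIN1 (log2 -0.39, adjusted p = 0.0233) and ERLIN2 (log2 -0.42, adjusted p = 0.0467), which form a complex that guides membrane proteins to degradation. ERLIN1 averaged 751 ± 17.6 in inhibitor and 988 ± 76.1 in inhibitor control libraries. The mimic effect minus the inhibitor effect passed for 1 of 18 other sensors and factors of the response, WFS1 (log2 0.66, adjusted p = 0.0483). Over all genes, 0.625% passed with a positive and 0.225% with a negative difference.

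Between the controls the further lists held calls in both directions, against 4.74% of all genes raised and 5.38% lowered. The counts by list are descriptions and were not tested against those shares. In inhibitor control over mimic control, 2 of 20 other oxidoreductases and isomerases rose and 1 fell, with SERPINH1, the collagen chaperone HSP47, at 0.50 (adjusted p = 0.0181), the prolyl isomerase FKBP2 at 1.20 (adjusted p = 0.0269) and the oxidase ERO1B at -1.08 (adjusted p = 0.0212). Of 10 other genes of the ER HSP70 system, HSPA13 (log2 -0.59) and DNAJC10 (log2 -0.53) fell. Of 24 other degradation genes, STUB1 (log2 0.40) and BAG6 (log2 0.86) rose. Of 18 other sensors and factors, 2 rose, CREB3L1 (log2 0.38) and WFS1 (log2 0.43), and 4 fell, among them the protease MBTPS2 that cleaves ATF6 (log2 -0.50) and DDIT3, or CHOP (log2 -0.68). Of 22 genes of ER to Golgi transport, SEC13 (log2 0.42) and SURF4 (log2 0.23) rose and SEC24B fell (log2 -0.61), and of 28 genes of translocation and N-glycosylation none passed by limma, with 7 at an unadjusted p under 0.05, against 29.2% of all genes.

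With the mimic, over the inhibitor control, the genes called in these lists rose, against 2.97% of all genes raised and 1.38% lowered, and with only the 6 libraries compared no gene was called. They comprised 5 of 28 genes of translocation and N-glycosylation, among them the oligosaccharyltransferase subunits STT3B (log2 0.51), STT3A (log2 0.50) and MAGT1 (log2 0.32) and the translocon-associated SSR1 (log2 0.53). They comprised also 5 of 22 genes of ER to Golgi transport, among them TMED2 (log2 0.50), LMAN1 (log2 0.50), SEC23A (log2 0.44) and SEC24D (log2 0.36). Of 18 other sensors and factors 3 rose, ATF4 (log2 0.60), MBTPS2 (log2 0.48) and DDIT3 (log2 0.65). The remaining rises were HSPA13 (log2 0.71, 1 of 10), TMX3 (log2 0.54, 1 of 20) and ERLIN2 (log2 0.37, 1 of 24). Without mimic replicate 3, 2913 of all genes were raised and 2216 lowered, and the lists were not counted in that fit. Median log2 differences were 0.19 for translocation and N-glycosylation and 0.28 for ER to Golgi transport, against 0.05 over all genes. They were 0.25 for other sensors and factors and 0.12 for other genes of the HSP70 system. For other degradation genes the median was 0.06, and for other oxidoreductases and isomerases 0.05, near that of all genes.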

How the data were processed

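RNA-seq was performed on total RNA of 12 libraries, 3 per group, and groups and replicate numbers were taken from the labels. Each deposited value is the signal of an Ensembl gene. To make it, the authors checked reads with FastQC, trimmed them with Trim Galore, quantified them on hg38 with kallisto and scaled them with sleuth, giving estimated counts summed per gene and divided by a size factor for each library, without correction for length. The sources used here give no tool versions. Normalised totals stand in for depth, and the number of mapped reads is unknown.

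Genes were kept where 47% or more of the libraries had a value of 5 or more, and log2(value + 0.5) was modelled by 4 group means. The limma package (3.58.1, R 4.3.3) was used, with lmFit and a trended eBayes on all 12 libraries together. Tests were two-sided with Benjamini-Hochberg adjustment over all genes and a threshold of 0.05. The same code was tested on simulated data. Sequence searches, tables and plots used Python 3.11.15, numpy 2.4.6, scipy 1.17.1 and matplotlib 3.10.9. Gene coordinates and 3′ UTRs are from GENCODE 29 (GRCh38), and the microRNA and promoters from RefSeq.

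The comparisons share control libraries. Whether libraries of a group came from separate transfections was not stated, so p-values measure the spread between libraries, which may be technical. The members and the further gene lists were chosen with earlier results of these data known. Per-library values were given for members past the threshold in any comparison and for HSPA5, XBP1, ATF6, ERN1 and DERL3, and up to 4 genes of each further list were named by p. Values of P4HB, DNAJC3, EDEM3 and SEC61G were added after seeing them. Where all libraries of a group are described as above or below another group, the share of all genes that separate likewise was not counted. Alternatives were 2 other pseudocounts, no filter and a filter at 20, 2 other scalings, only the libraries compared, array weights, a replicate block and leaving out each library.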

Additional observations from a re-analysis of the deposited data

Results flagged for a closer look

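For 3 members the mimic effect and the inhibitor effect differed by the test of the difference itself. These were HYOU1 (log2 1.57), PDIA6 (log2 1.38) and PPIB (log2 0.96), as the mimic effect minus the inhibitor effect. All 3 had their lowest values in the mimic control libraries. Groups of 3 libraries were too small to be searched for single outlying samples.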

How the results depend on the processing

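No call reversed under any alternative. Of 27 calls of members over the 5 comparisons, all 27 were kept with a pseudocount of 1 or 5, a filter at 20, a common median ratio, array weights or without mimic replicate 3, 26 after quantile normalisation, 21 without a filter, 18 of 24 with only the libraries compared, and 13 to 27 when 1 library was left out. PDIA6, HYOU1 and PPIB kept theirs in mimic over mimic control under every alternative run. Without a filter, all genes called numbered 962 in inhibitor control over mimic control (1667 as reported), 76 in mimic effect minus inhibitor effect (140) and 95 in mimic over inhibitor control (717), where 3 members were called (6). With only the libraries compared, 20 genes were called in mimic over mimic control (125), 3913 in inhibitor control over mimic control, and 0 in mimic over inhibitor control with 0 members, although 3289 genes had an unadjusted p under 0.05 by limma there. With array weights, which gave mimic replicate 3 the lowest weight (0.207), the counts in the order of the report were 817, 1136 (255 as reported for inhibitor over inhibitor control), 4567, 746 and 5662 genes, with 5 members in inhibitor over inhibitor control (3), 19 in inhibitor control over mimic control (12), 8 in mimic effect minus inhibitor effect (3) and 19 in mimic over inhibitor control. The causes were not tested.

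When 1 library was left out, members called ranged over 3 to 7 in mimic over mimic control, 0 to 4 in inhibitor over inhibitor control, 5 to 17 in inhibitor control over mimic control, 3 to 6 in mimic effect minus inhibitor effect and 2 to 17 in mimic over inhibitor control, and all genes called over 46 to 797, 88 to 653, 271 to 3751, 36 to 492 and 10 to 5129 in that order. No shared effect of the replicate numbers was seen. Deviations of same-numbered libraries correlated at -0.18 to 0.063 over genes (18 pairs, median 0.0020, 0 over 0.1). Those of other pairs from different groups correlated at -0.074 to 0.15 (36 pairs, median 0.00072, 4 over 0.1). Whether the numbers pair the libraries by design cannot be told from this. With a replicate block 21 of 27 calls were kept, 1 member (CANX) was called in inhibitor over inhibitor control, where SEL1L (adjusted p = 0.0509) and CALR (adjusted p = 0.0730) were lost, and 1017, 74 and 152 genes in inhibitor control over mimic control, mimic effect minus inhibitor effect and mimic over inhibitor control. Without read counts the precision of low values such as those of ERN1 is unknown.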

Other observations

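Chaperones of other compartments were counted in the same fit. Of 19 tested cytosolic chaperones (21 listed), none passed in mimic over mimic control by limma, with 10 at an unadjusted p under 0.05, against 13.2% of all genes. All genes raised were 0.765% in inhibitor over inhibitor control, 4.74% in inhibitor control over mimic control and 2.97% in mimic over inhibitor control. In inhibitor over inhibitor control DNAJA1, a cytosolic HSP40, rose (log2 0.52, adjusted p = 0.0492), averaging 708 ± 67.7 in inhibitor and 492 ± 37.4 in inhibitor control libraries (SD, n = 3 each). In inhibitor control over mimic control the small heat shock protein HSPB1 (log2 0.81, adjusted p = 0.00292) and the chaperonin subunit CCT4 (log2 0.26, adjusted p = 0.0453) rose, and HSPB1 was lower with the mimic than with the inhibitor control (log2 -0.45, adjusted p = 0.0491). Of 11 mitochondrial chaperones and proteases, HSPE1 rose in inhibitor control over mimic control (log2 0.73, adjusted p = 0.0151), and TRAP1 (log2 0.51, adjusted p = 0.0318) and CLPX (log2 0.65, adjusted p = 0.0436) rose in mimic over inhibitor control.

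Of 7 tested chondrocyte and mesenchymal markers (10 listed, median log2 -0.02), 2 were called in inhibitor control over mimic control. Over all genes, 4.74% were raised and 5.38% lowered there. The collagen genes COL1A1 (log2 0.79, adjusted p = 0.00369) and COL1A2 (log2 0.31, adjusted p = 0.0384), whose products are clients of PPIB and SERPINH1, rose. A link between these genes was not tested. COL1A1 averaged 8352 ± 785 in inhibitor control and 4842 ± 493 in mimic control libraries. Its mean was 6906 ± 1025 in mimic and 8330 ± 719 in inhibitor libraries, so the mimic control was the low group.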
